A study of Homo sapiens with 8 samples.

Results

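The 10 genes described here encode the AP-1 subunits FOS, FOSB, FOSL1, FOSL2, JUN, JUNB and JUND, together with EGR1, ATF3 and IER2, which are switched on with them in the immediate early response. They were taken by symbol from 26443 rows with values in a table of FPKM (fragments per kilobase of gene, adjusted for library size). All 10 were present, and 6 of them, JUN, JUNB, JUND, FOSL2, ATF3 and IER2, reached a mean of 1 FPKM over the 8 libraries and so belonged to the 11874 genes tested. The cells were C4-2B, an established human prostate cancer line that descends from LNCaP and grows without androgen, kept for 7 days with DMSO alone (the vehicle control), 10 uM ENZ, 1 uM EPZ6438 (EPZ), or both agents (Combination). The labels give no separate doses for the combined treatment. ENZ commonly stands for enzalutamide, which blocks the androgen receptor. EPZ6438, or tazemetostat, inhibits EZH2, the enzyme that methylates histone H3 in Polycomb silencing. Each of the 4 groups had 2 libraries, from this single cell line. Separate cultures are not stated for them, so the p-values reflect the spread between these samples alone, and that spread may be technical.

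AP-1 is a dimer of basic leucine zipper proteins. JUN proteins pair with each other or with FOS proteins, whereas FOS proteins need a partner, and the pair binds a short palindromic site in enhancers and promoters. In many cells mitogens and stress act through MAP kinases to transcribe FOS, JUN, EGR1, ATF3 and IER2 within minutes, after which the RNAs decay quickly, while FOSL2 and JUND are typically made more steadily. In prostate epithelium AP-1 proteins share enhancers and partners with the androgen receptor, and JUN is known both to help and to oppose it depending on context. RNA taken at day 7 shows the standing level of these genes and not the burst that follows a stimulus.

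Depth was read from low FPKM values, which move in steps of a single fragment, and spanned a 1.58-fold range over the libraries. For all 10 members the steps gave whole fragments in every library, with no value further than 0.00039 from a whole number, so the counts printed below are recovered fragments. All 9 prostate luminal markers were tested. Their sum was 1725 to 1765 FPKM in DMSO, 889 to 893 with ENZ, 4309 to 4358 with EPZ and 1015 to 1039 in Combination. The 3 basal markers together stayed between 0 and 0.184 FPKM, the 3 endothelial markers between 0.286 and 0.857, highest in Combination, and the 3 neuroendocrine markers between 0.294 and 1.33, highest in EPZ. Of the 4 fibroblast markers only COL1A1 was tested and COL1A2 was at 0 throughout. Their sum was 2.40 to 2.59 FPKM in DMSO, 3.58 to 4.62 with ENZ, 2.96 to 3.02 with EPZ and 10.7 in both Combination libraries, so it was highest where JUN and FOSL2 were. Of the 3 leukocyte markers only CD68 was tested and CD3E was at 0 throughout. Their sum was 7.06 to 7.38 FPKM in DMSO, 6.46 to 6.92 with ENZ, 10.3 in both EPZ libraries and 11.02 to 12.09 in Combination, higher in the groups where ATF3 was. The part of these marker genes' changes in the members' results was not tested. The median tested gene stood 0.15 lower in Combination than in DMSO on the log2 scale, and short genes stood lowest, with a median of -0.38 among genes as short as JUNB and JUND, -0.33 at the length of IER2, -0.27 at that of ATF3, -0.20 at that of JUN and -0.14 at that of FOSL2. Changes in Combination are therefore given both as deposited and relative to genes of like length where the call depends on it.

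The stretches around the transcription start of JUN, ATF3, FOSL2 and EGR1 are shown because the first 3 rose with EPZ and with Combination, and because serum response elements were found at EGR1. Each runs from 150 bases before to 30 after the RefSeq start on GRCh38.p14, in the direction of transcription: JUN at chr1:58784018-58784197 on the minus strand, and ATF3 at chr1:212565257-212565436, FOSL2 at chr2:28392708-28392887 and EGR1 at chr5:138465329-138465508 on the plus strand. Capitals mark motif matches.
JUN: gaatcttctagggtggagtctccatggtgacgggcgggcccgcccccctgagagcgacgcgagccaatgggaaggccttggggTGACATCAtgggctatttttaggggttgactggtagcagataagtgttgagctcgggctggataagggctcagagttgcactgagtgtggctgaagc
ATF3: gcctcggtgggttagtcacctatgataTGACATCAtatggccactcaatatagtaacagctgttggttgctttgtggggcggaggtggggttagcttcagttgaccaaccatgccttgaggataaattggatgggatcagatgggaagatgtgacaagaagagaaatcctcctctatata
FOSL2: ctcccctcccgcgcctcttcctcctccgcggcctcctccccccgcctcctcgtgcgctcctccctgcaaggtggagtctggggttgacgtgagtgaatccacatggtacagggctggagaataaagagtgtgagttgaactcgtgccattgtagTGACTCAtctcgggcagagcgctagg
EGR1: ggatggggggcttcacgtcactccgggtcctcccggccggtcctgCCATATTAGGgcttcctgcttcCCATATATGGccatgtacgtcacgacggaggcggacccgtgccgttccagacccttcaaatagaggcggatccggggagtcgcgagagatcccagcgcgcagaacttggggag
RefSeq windows from 250 bases before to 50 after the start were found for 9 of the 10 members, with 2 alternative starts for ATF3. Both strands were searched for the AP-1 site (TGACTCA or its complement TGAGTCA), the cyclic AMP response element TGACGTCA, the serum response element, the EGR1 site GCGTGGGCG and the TATA box TATAAA. The variant TGACATCA was added to the search after the JUN sequence had been read, so its matches are a description chosen on these sequences. JUN and the first ATF3 start each held TGACATCA, from -67 to -60 and from -123 to -116, and 2.61% of all 35116 RefSeq windows of this length held it. FOSL2 held TGACTCA from 5 to 11 bases after its start, against 4.95% of windows with an AP-1 site. The GENCODE loci printed below for JUN and FOSL2 begin upstream of these RefSeq starts. The matches marked in JUN and FOSL2 therefore lie within those loci. EGR1 held a pair of serum response elements, from -105 to -96 and from -83 to -74, where 1.29% of windows held any. Outside the printed stretches JUND held TGACGTCA from -200 to -193 (1.85% of windows), and TATAAA (11.5% of windows) began at -33 in FOS, -30 in FOSB, -31 in JUNB and -230 at the second ATF3 start. The window of IER2 held none of these letters. No match overlapped another.

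In DMSO the most abundant members were JUND, JUNB and IER2, followed by JUN, FOSL2 and ATF3, while FOS, FOSB, EGR1 and FOSL1 were each under 0.3 FPKM in both libraries. JUN and FOSL2 rose under each agent and were highest in Combination. ATF3 rose with EPZ, alone or combined, and JUND fell with ENZ, alone or combined, though the combined call was lost under quantile normalization. In bulk RNA fewer expressing cells and less RNA per cell cannot be told apart. These levels are FPKM, which are per length, and are compared between genes only on that scale.

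**Figure D1:**
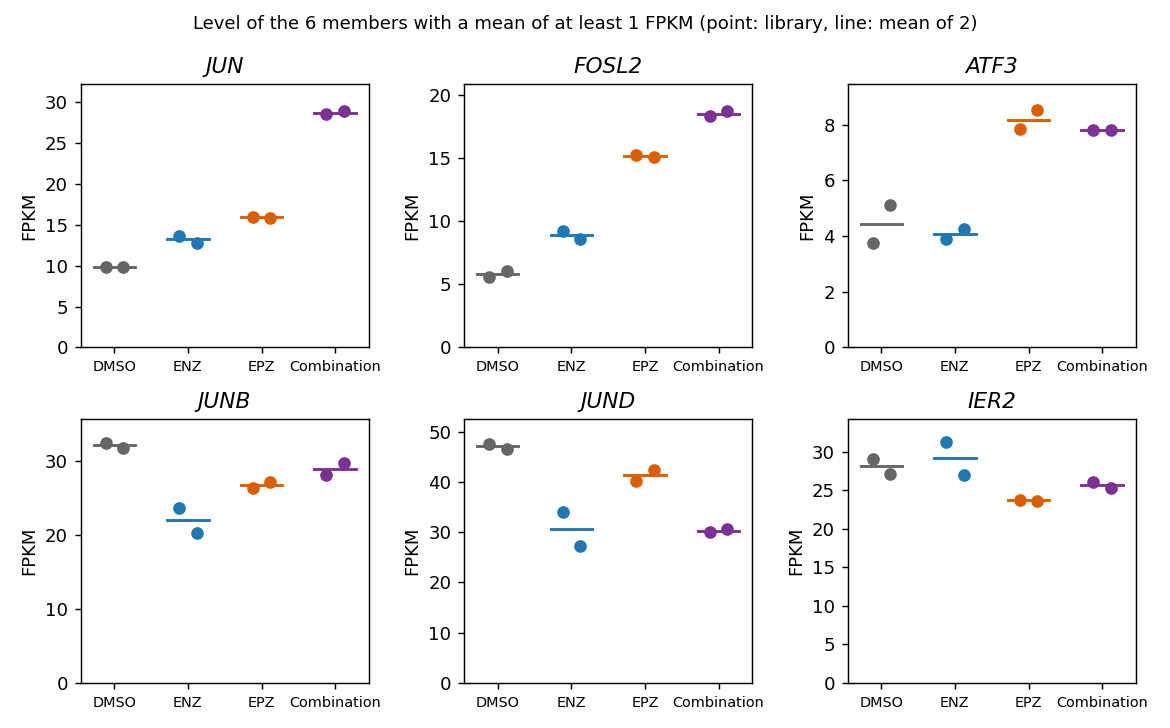
Level in FPKM (linear axis from 0) of the 6 tested members in each of the 8 libraries, with points for libraries and a line for the mean of the 2 in a group. JUN climbs from 9.85 in DMSO to 28.7 in Combination and FOSL2 from 5.81 to 18.5, while JUND lies near 30 in both groups that received ENZ.

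JUN, the founding member of the JUN family and its strongest activator, is an intronless gene at chr1:58780788-58784327 on the minus strand (GENCODE release 29, GRCh38). Its level was 9.87 and 9.83 FPKM in DMSO, 13.6 and 12.8 under ENZ, 15.98 and 15.80 under EPZ, and 28.5 and 28.9 in Combination. The Combination libraries were the highest, the groups did not overlap, and each step in the order DMSO, ENZ, EPZ, Combination exceeded the spread. Group means were 9.85 ± 0.0287, 13.2 ± 0.589, 15.9 ± 0.129 and 28.7 ± 0.285 FPKM (SD, n = 2), or 1.34, 1.61 and 2.91 times the DMSO mean under ENZ, EPZ and Combination. On the log2(FPKM + 1) scale JUN rose by 0.39 (SE 0.058) with ENZ, 0.64 with EPZ and 1.45 with Combination, with limma adjusted p of 0.000408, 2.05e-05 and 1.03e-08. Combination exceeded ENZ by 1.06 (adjusted p = 1.97e-07) and EPZ by 0.81 (adjusted p = 1.03e-06), and EPZ exceeded ENZ by 0.25 (adjusted p = 0.00587). These comparisons share libraries, so they are not independent of each other. The values rest on 506 and 663 fragments in DMSO, 873 and 927 under ENZ, 1296 and 1172 under EPZ, and 1824 and 1570 in Combination.

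JUNB and JUND, the JUN relatives that can restrain growth and JUN activity in some settings, moved the other way under ENZ. JUNB (chr19:12791496-12793315, plus strand, intronless) stood at 32.5 and 31.9 FPKM in DMSO, 23.7 and 20.3 under ENZ, 26.4 and 27.2 under EPZ, and 28.1 and 29.8 in Combination. Both ENZ libraries were the lowest, and no library of a treated group reached the DMSO values. JUNB fell by 0.53 on the log2 scale with ENZ (SE 0.074, adjusted p = 0.000266) and by 0.25 with EPZ (adjusted p = 0.0158). The EPZ call was lost under quantile normalization (-0.09), after centring on genes of like length (-0.13), and without the first DMSO, the second DMSO or the first EPZ library (-0.24, -0.27 and -0.23). Combination against DMSO gave -0.15 (adjusted p = 0.0948), which passed with only the compared groups in the fit (adjusted p = 0.03) or without either ENZ library (adjusted p = 0.0209 and 0.0208). Combination exceeded ENZ by 0.39 (adjusted p = 0.00106). In the order of levels, ENZ lay below EPZ (difference 0.28, adjusted p = 0.0114, and 0.0702 without the second EPZ library), whereas EPZ and Combination, and Combination and DMSO, did not pass the test as deposited. Combination exceeded EPZ in JUNB under median-of-ratios scaling (0.23), quantile normalization (0.44) and length centring (0.38). The sign of the Combination value depends on scaling: relative to genes of like length JUNB was 0.25 higher than in DMSO (adjusted p = 0.0033), and under quantile normalization 0.35 higher (adjusted p = 0.00103).

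JUND (chr19:18279760-18281622, minus strand, intronless) had the highest level of the members in DMSO, 47.6 and 46.5 FPKM. It was 34.0 and 27.2 FPKM under ENZ, 40.2 and 42.4 under EPZ, and 29.9 and 30.6 in Combination. Of the 4 groups the ENZ libraries differed most between themselves, by 0.31 on the log2 scale, and enclosed the Combination values, while all 4 lay below every DMSO and EPZ library. JUND fell by 0.61 with ENZ (SE 0.090, adjusted p = 0.000351) and by 0.62 with Combination (adjusted p = 0.000108), and Combination lay 0.43 below EPZ (value -0.43, adjusted p = 0.00153). EPZ against DMSO gave -0.18 (adjusted p = 0.106), which passed with only those groups (adjusted p = 0.0114) or without either ENZ library (adjusted p = 0.00886 and 0.00884). Combination against ENZ gave -0.0074, with a 95% interval from -0.21 to 0.19. That value was 0.15 without the first ENZ library (adjusted p = 0.0434), -0.16 without the second (adjusted p = 0.0308), and 0.27 after length centring (adjusted p = 0.00897). The difference between Combination and EPZ lost its call under quantile normalization (-0.048) and length centring (-0.16). Relative to genes of like length the Combination value was -0.22 (adjusted p = 0.019), and under quantile normalization it was -0.063 (adjusted p = 0.503). The ENZ values of JUNB and JUND passed under all 17 alternatives, from -0.64 to -0.40 and from -0.77 to -0.43.

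Within the JUN family the shares of the summed FPKM shifted towards JUN. JUN made up 10.97% and 11.14% of the family sum in the DMSO libraries, 19.1% and 21.2% under ENZ, 19.3% and 18.5% under EPZ, and 32.9% and 32.3% in Combination. JUND went from 52.9% and 52.8% in DMSO to 34.6% and 34.3% in Combination, with 46.4% ± 1.81 in ENZ and 49.2% ± 0.671 in EPZ (SD, n = 2). JUNB kept a share between 31.9% and 36.1% in every library. The family sum was 89.1 ± 1.22 FPKM in DMSO, 65.8 ± 7.78 under ENZ, 84.0 ± 1.98 under EPZ and 87.9 ± 1.99 in Combination. As deposited, the Combination sum thus lay near that of DMSO while its makeup differed. The sums were not computed under other scalings, and their nearness may depend on scaling. In Combination against DMSO, JUNB and JUND were at -0.15 and -0.62 as deposited but at 0.35 and -0.063 under quantile normalization. These shares are within a library and do not move with a single scaling factor per library, but they do carry the differences in length between the genes. They also carry the length trend in Combination, where the median change was -0.38 among genes as short as JUNB and JUND and -0.20 at the length of JUN. The shares were not recomputed after length centring.

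FOSL2, also called FRA2, a FOS relative without the strong activation domain of FOS, carried nearly all FOS family RNA. It lies at chr2:28392448-28417312 on the plus strand. FOSL2 stood at 5.59 and 6.04 FPKM in DMSO, 9.18 and 8.62 under ENZ, 15.3 and 15.1 under EPZ, and 18.3 and 18.7 in Combination. Its groups did not overlap, and as for JUN each step from DMSO through ENZ and EPZ to Combination exceeded the spread. FOSL2 rose by 0.54 with ENZ (SE 0.064, adjusted p = 0.000101), by 1.25 with EPZ (adjusted p = 7.12e-07) and by 1.52 with Combination (adjusted p = 1.46e-08), where its mean was 3.18 times that of DMSO. Combination exceeded ENZ by 0.98 (adjusted p = 6.83e-07) and EPZ by 0.27 (adjusted p = 0.00358), and EPZ exceeded ENZ by 0.71 (adjusted p = 1.64e-05). FOSL2 made up 90.8% to 96.0% of the FOS family sum in every library, and that sum went from 6.38 ± 0.380 FPKM in DMSO to 19.5 ± 0.279 in Combination (SD, n = 2). Among all tested genes, 1.03% had a higher change than FOSL2 with EPZ, 10.0% with ENZ and 4.14% with Combination, and for JUN these shares were 5.64%, 16.9% and 4.70%.

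FOS, FOSB and FOSL1 were under 1 FPKM in all libraries and outside the tested genes. FOS, the classic early response gene at chr14:75278774-75282230 on the plus strand, stood at 0.150 and 0.297 FPKM in DMSO, 0.481 and 0.595 under ENZ, 0.285 and 0.374 under EPZ, and 0.649 and 0.793 in Combination. This is 5 and 13 fragments in DMSO, 20 and 28 under ENZ, 15 and 18 under EPZ, and 27 and 28 in Combination. Both groups with ENZ lay above both DMSO libraries, and the EPZ libraries overlapped DMSO. Per unit of depth the summed FOS fragments were 2.32 times those of DMSO in ENZ (exact 95% interval 1.32 to 4.24), 3.06 times in Combination (1.77 to 5.54) and 1.40 times in EPZ (0.766 to 2.64). These intervals cover counting error only. When limma was run with no filter on low values, over 21026 genes, FOS passed for ENZ (0.33, adjusted p = 0.0254), for Combination (0.49, adjusted p = 0.0024) and for Combination against EPZ (0.37, adjusted p = 0.00983), and not for EPZ against DMSO (adjusted p = 0.339). With a pseudocount of 0.1 the adjusted p-values for FOS were 0.0356 for ENZ and 0.00535 for Combination. The other scalings and the fits with single libraries left out cover the 6 tested members and not FOS, so its calls lack those checks.

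FOSB and FOSL1, the other FOS relatives, were near the limit of detection. FOSB (chr19:45467995-45475179, plus strand) had 8 to 22 fragments a library and levels from 0.110 to 0.261 FPKM, with treated groups overlapping DMSO. FOSL1 (chr11:65892049-65900573, minus strand), which encodes FRA1 and is high in many invasive carcinoma lines, had 2 to 9 fragments a library. Its ratio to DMSO per unit of depth was 0.435 under ENZ, with an exact 95% interval of 0.117 to 1.40, so no difference was detectable at this depth.

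**Figure D2:**
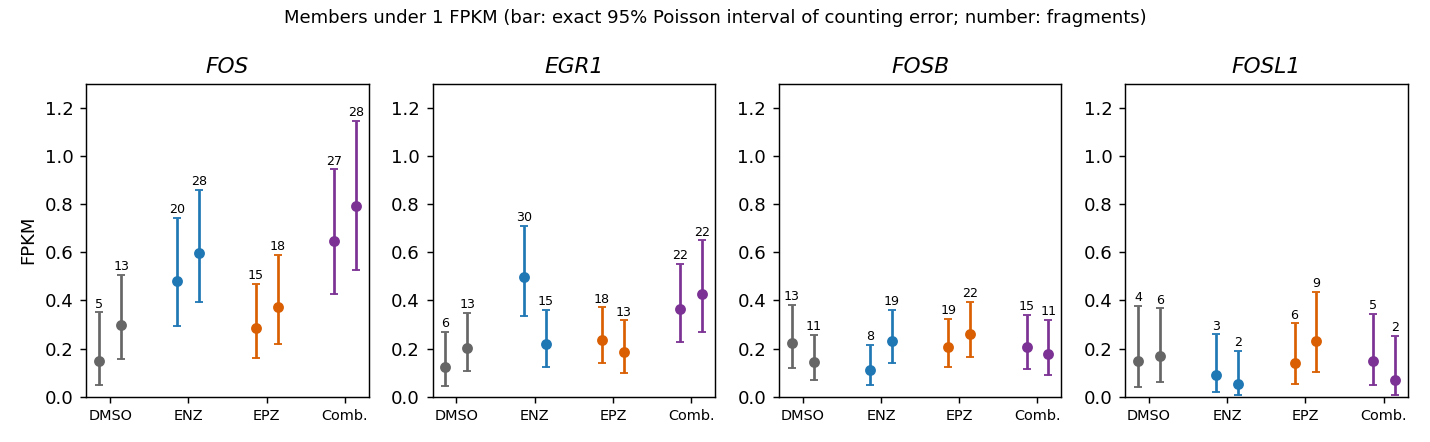
Level in FPKM of FOS, EGR1, FOSB and FOSL1 in each library, with exact 95% Poisson intervals for counting error and the number of recovered fragments above each point. FOS is higher in the ENZ and Combination libraries, at 20 to 28 fragments, than in DMSO, at 5 and 13, though some of these intervals overlap. The intervals of FOSB and FOSL1 overlap across groups too.

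ATF3, a stress-induced leucine zipper factor that pairs with JUN proteins, lies at chr1:212565334-212620777 on the plus strand. It stood at 3.74 and 5.11 FPKM in DMSO, 3.89 and 4.27 under ENZ, 7.84 and 8.53 under EPZ, and 7.83 and 7.80 in Combination. The 4 libraries with EPZ were all above the 4 without it, and ENZ lay within the range of DMSO. ATF3 rose by 0.77 with EPZ (SE 0.11, adjusted p = 0.000319) and by 0.71 with Combination (adjusted p = 0.000186), and Combination exceeded ENZ by 0.80 (adjusted p = 0.000125). It did not pass for ENZ against DMSO (-0.084, adjusted p = 0.538) or for Combination against EPZ (-0.059, 95% interval -0.31 to 0.19). Its DMSO libraries, at 147 and 264 fragments, differed by 0.37 on the log2 scale, more than those of any other tested member in any group. Without the first DMSO library ATF3 was 0.27 lower in ENZ than in DMSO (value -0.27, adjusted p = 0.0494), and without the second the value was 0.098 (adjusted p = 0.434). Under EPZ and Combination its values stayed past the threshold under all 17 alternatives, from 0.59 to 0.95 and from 0.53 to 0.98.

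EGR1, a zinc finger factor known to be induced through serum response elements, lies at chr5:138465490-138469315 on the plus strand and was also under 1 FPKM. Its level was 0.124 and 0.204 FPKM in DMSO, 0.496 and 0.219 under ENZ, 0.235 and 0.186 under EPZ, and 0.364 and 0.429 in Combination, which is 6 to 30 fragments a library. The ENZ libraries differed widely, and those of Combination lay above both DMSO and both EPZ libraries. Per unit of depth EGR1 fragments were 2.06 times those of DMSO in ENZ (exact 95% interval 1.18 to 3.73) and 2.32 times in Combination (1.33 to 4.21), for counting error alone. Over the replicates, the limma run without a filter gave adjusted p of 0.158 for ENZ and 0.0595 for Combination, so neither passed.

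IER2, a short-lived nuclear regulator from the same early response, lies at chr19:13150415-13154908 on the plus strand. It stood at 29.03 and 27.14 FPKM in DMSO, 31.3 and 26.9 under ENZ, 23.7 and 23.7 under EPZ, and 26.0 and 25.3 in Combination. The EPZ libraries were the lowest, and the ENZ libraries enclosed those of DMSO. IER2 fell by 0.23 with EPZ (SE 0.074, adjusted p = 0.0227), and EPZ lay 0.28 below ENZ (value -0.28, adjusted p = 0.0107, and 0.0508 and 0.055 without either EPZ library). The EPZ call against DMSO was lost under median-of-ratios scaling (-0.18), under quantile normalization (-0.092), after centring on genes of like length (-0.13). With the change about as large, the adjusted p also lay above 0.05 with no filter (-0.23, adjusted p = 0.0568) and without the first DMSO, first EPZ or second EPZ library (-0.19, -0.24 and -0.23). Combination against DMSO was -0.12 (adjusted p = 0.147, and 0.0424 and 0.0423 without either ENZ library), and relative to genes of like length it was 0.21 (adjusted p = 0.0127). Combination against ENZ was -0.17 (adjusted p = 0.0616), and -0.28 without the second ENZ library (adjusted p = 0.00387), but its sign turned under median-of-ratios scaling (0.013), quantile normalization (0.16) and length centring (0.091). Combination exceeded EPZ in IER2 by 0.11 as deposited (adjusted p = 0.204) and by 0.35 after length centring (adjusted p = 0.00104).

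**Figure D3:**
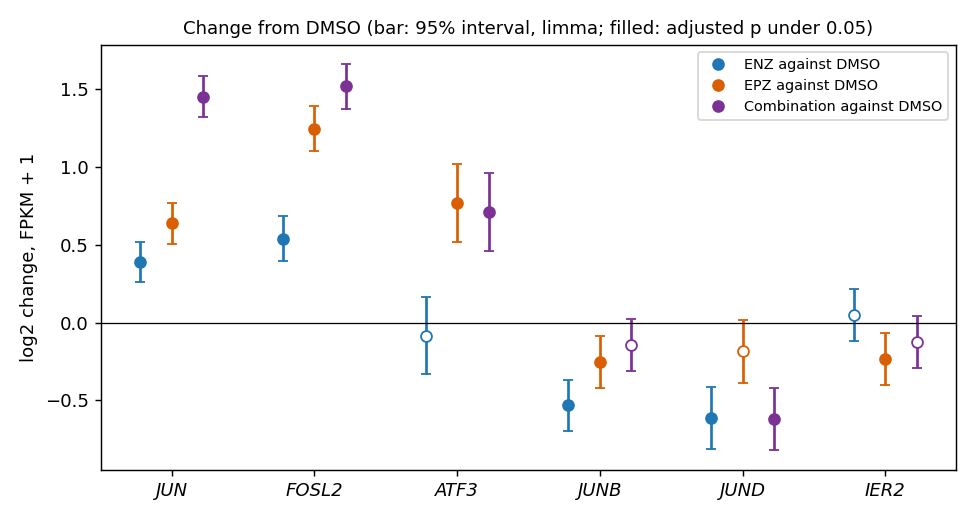
Change from DMSO on the log2(FPKM + 1) axis for the 6 tested members under ENZ, EPZ and Combination, with 95% intervals from limma and filled points where the adjusted p was under 0.05. JUN reaches 1.45 and FOSL2 1.52 in Combination, ATF3 is at -0.084 with ENZ, and JUNB and JUND lie below 0 with ENZ.

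Counted over the 6 tested members, 2 were higher and 2 lower with ENZ, where 27.9% of all tested genes were called higher and 28.8% lower. With EPZ 3 were higher and 2 lower, against 23.4% and 32.4% of all genes, and with Combination 3 were higher and 1 lower, against 33.3% and 47.4%. These comparisons share the DMSO libraries. Combination exceeded ENZ in 4 members and was below it in 0 (25.3% higher and 45.5% lower over all genes), with IER2 at an unadjusted limma p of 0.0445. It exceeded EPZ in 2 and was below it in 1 (29.2% and 43.7%). In EPZ against ENZ 5 members were higher and 1 lower, against 20.0% and 30.6%. The median change of the tested members was -0.018 with ENZ, 0.23 with EPZ and 0.29 with Combination, beside 0.0049, -0.046 and -0.15 over all tested genes. With 6 members tested, nothing particular to them is read from these counts. Scaling moved the background too: the share of calls that were higher went from 35.7% as deposited to 51.2% under median-of-ratios scaling for Combination against ENZ, and from 39.5% to 50.4% for EPZ against ENZ.

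**Figure D4:**
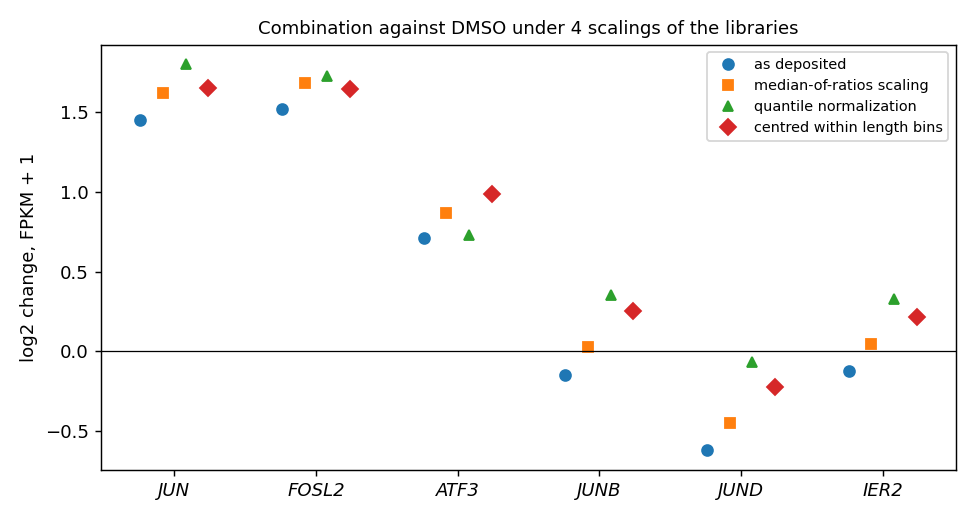
Change of the 6 tested members in Combination against DMSO, on the log2(FPKM + 1) axis, as deposited and under median-of-ratios scaling, quantile normalization and centring on genes of like length. JUN, FOSL2 and ATF3 are above 0 under all 4, JUND is below 0 under all 4, and JUNB and IER2 lie on both sides.

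The layout also asks whether the effect of the paired agents differed from the sum of their single effects on the log2 scale. JUN in Combination exceeded that sum by 0.42 (SE 0.082, adjusted p = 0.00307). If the ratios had multiplied, JUN would have reached 21.3 FPKM, and 28.7 FPKM was observed. JUNB exceeded its sum by 0.64 (SE 0.10, adjusted p = 0.0012), with 28.99 FPKM observed and 18.3 FPKM from multiplied ratios. FOSL2 fell short of its sum by the value -0.27 (SE 0.091, adjusted p = 0.0412), with 18.5 FPKM observed against 23.2 FPKM from multiplied ratios. If the FPKM differences had added instead, 18.2 FPKM would be reached for FOSL2, 19.3 for JUN and 16.6 for JUNB. The FOSL2 call was lost under median-of-ratios scaling (-0.14) and after centring on genes of like length (-0.18), and it turned to 0.049 under quantile normalization. Leaving out single libraries kept the size, from -0.32 to -0.22, while the adjusted p ran from 0.0231, without the second ENZ library, to 0.152, and lay above 0.05 without any of the other libraries. JUN and JUNB passed under all 16 alternatives, from 0.38 to 0.77 and from 0.53 to 0.84. ATF3, JUND and IER2 did not pass (adjusted p = 0.913, 0.297 and 0.669), although JUND passed without the first ENZ library (0.33, adjusted p = 0.00769), under quantile normalization (0.38) and after centring on length (0.33). Of the 6 members 2 were above the sum and 1 below it, where 9.99% of all tested genes were above and 29.6% below. The share of calls above the sum was 25.2% as deposited, 44.3% under median-of-ratios scaling and 49.3% under quantile normalization.

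**Figure D5:**
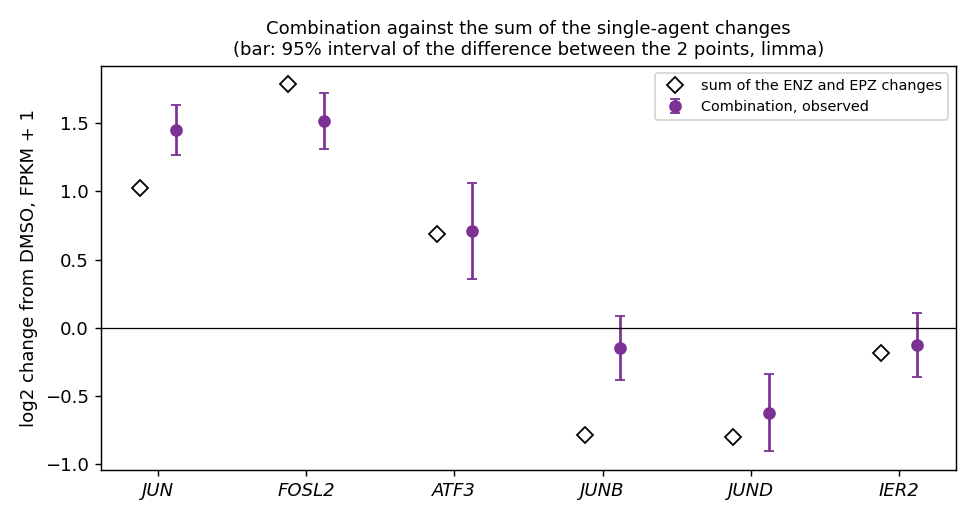
Change from DMSO on the log2(FPKM + 1) axis in Combination (filled, with the 95% interval of its distance from the sum) and the sum of the ENZ and EPZ changes (open) for the 6 tested members. JUN and JUNB lie above the sum by 0.42 and 0.64, and FOSL2 lies below it.

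Among other genes of the pathway, the dimer partners of AP-1 (ATF2, ATF7 and the BATF, JDP2 and MAF proteins) had 7 of 11 tested, of which 1 was higher and 4 lower with ENZ, 1 and 1 with EPZ, and 3 and 3 with Combination. Over all tested genes 27.9% were called higher and 28.8% lower with ENZ, 23.4% and 32.4% with EPZ, and 33.3% and 47.4% with Combination. The list medians were -0.12 with EPZ and -0.042 with Combination, the latter turning to 0.11 under median-of-ratios scaling. MAF, a partner of FOS and JUN proteins, stood at 1.19 ± 0.139 FPKM in DMSO, 0.0727 ± 0.0387 under ENZ, 9.24 ± 0.364 under EPZ and 0.864 ± 0.0154 in Combination (SD, n = 2). It fell by 1.03 with ENZ and rose by 2.22 with EPZ, and its lower call in Combination (-0.23) was lost under median-of-ratios scaling. JDP2, which opposes JUN, went from 1.39 ± 0.0922 FPKM in DMSO to 4.32 ± 0.184 in Combination and was 0.410 ± 0.00248 in EPZ. It rose by 1.15 with Combination and fell by 0.76 with EPZ. MAFK, a small MAF protein, fell by 0.51 with ENZ.

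All 26 genes of the MAP kinase cascade and its transcription factors were tested, with 4 higher and 11 lower under ENZ, 3 and 10 under EPZ, and 6 and 15 under Combination. The shares over all tested genes were 27.9% and 28.8%, 23.4% and 32.4%, and 33.3% and 47.4%. The EPZ counts became 7 and 8 under median-of-ratios scaling and 5 and 4 under quantile normalization. With quantile normalization the Combination counts were 11 higher and 11 lower. Over all tested genes the share of calls that were higher moved too. With EPZ it went from 41.9% as deposited to 49.4% under median-of-ratios scaling and 47.7% under quantile normalization. With Combination it went from 41.3% to 48.2% under quantile normalization. The medians of these 26 genes as deposited were -0.065, -0.11 and -0.28. RPS6KA3, a kinase downstream of ERK, fell by 0.97 with ENZ, rose by 1.31 with EPZ and fell by 0.85 with Combination. RPS6KA1, its relative, fell in each, from 27.6 ± 0.439 FPKM in DMSO to 13.3 ± 0.0472 in Combination (SD, n = 2), as did HRAS (27.0 ± 1.49 to 10.9 ± 0.995) and ELK1 (22.7 ± 0.119 to 11.4 ± 1.03), a factor that binds serum response elements. The RPS6KA1 change with Combination was -1.002 as deposited and -0.67 under quantile normalization.

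The feedback inhibitors of the cascade, DUSP phosphatases with the Sprouty and SPRED proteins, had 11 of 16 tested, with 3 higher and 5 lower under ENZ, 6 and 2 under EPZ, and 5 and 5 under Combination (all tested genes 27.9% and 28.8%, 23.4% and 32.4%, and 33.3% and 47.4%). The medians of the inhibitors were -0.22, 0.23 and 0.13, the last turning to -0.050 under quantile normalization. DUSP4 was low in both groups with ENZ, at 10.3 ± 0.0136 FPKM in DMSO, 1.66 ± 0.149 under ENZ, 12.2 ± 0.309 under EPZ and 1.77 ± 0.0278 in Combination. DUSP10, which acts on the JUN kinases and p38, rose by 1.21 with ENZ, 0.77 with EPZ and 2.29 with Combination. DUSP9 fell by 0.91, 1.23 and 2.94, and DUSP7 by 0.45, 0.59 and 1.19. Members of this list thus went in opposite directions in Combination.

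Of 25 other immediate early genes 18 were tested, with 6 higher and 6 lower under ENZ, 6 and 4 under EPZ, and 9 and 6 under Combination, with medians of -0.048, 0.020 and 0.25. Beside these stand 27.9% and 28.8%, 23.4% and 32.4%, and 33.3% and 47.4% of all tested genes. BTG2, an antiproliferative gene, PPP1R15A, a stress gene, and CYR61, a secreted matrix protein, rose in all 3 comparisons with DMSO. BTG2 reached 27.3 ± 0.150 FPKM in Combination from 9.18 ± 0.201 in DMSO, PPP1R15A 4.02 ± 0.168 from 1.04 ± 0.0485, and CYR61 8.79 ± 0.713 from 3.50 ± 0.345 (SD, n = 2). KLF4 rose by 1.21 with Combination and as deposited did not pass with either agent alone. PLK2 fell by 0.54 with ENZ and rose by 2.20 with EPZ and 1.298 with Combination. MYC fell by 0.81 with ENZ and 1.98 with Combination, and ARC by 1.56 and 1.57, while neither passed with EPZ.

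Of 18 genes known as AP-1 targets in other cells 6 were tested, with 0 higher and 2 lower under ENZ, 3 and 2 under EPZ, and 2 and 2 under Combination, with medians of -0.10, 0.16 and 0.12. The same calls took 27.9% and 28.8%, 23.4% and 32.4%, and 33.3% and 47.4% of all tested genes. NQO1, a quinone reductase, fell in each, from 56.1 ± 1.59 FPKM in DMSO to 25.5 ± 1.15 in Combination, and its single-agent calls were lost under quantile normalization. VIM, which encodes vimentin, rose from 11.99 ± 0.561 FPKM to 24.6 ± 0.686 in Combination (0.98). VEGFA rose by 0.82 with EPZ and 0.39 with Combination, and KRT18, also a luminal marker, fell by 0.54 with ENZ, rose by 0.52 with EPZ and fell by 0.84 with Combination. Under quantile normalization the KRT18 values were -0.27 with ENZ and -0.14 with Combination (-0.50 with Combination after length centring), NQO1 was -0.59 with Combination, and VEGFA was 0.77 with Combination. Relative to genes of like length these 6 gave 4 higher and 2 lower in Combination. Signs of the named changes that passed were the same under median-of-ratios scaling, quantile normalization and centring on length.

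The tested genes whose 3 changes from DMSO lay nearest those of JUN, by Euclidean distance among 10886 candidates, were FBLIM1 at 0.0519, MAPK8IP3 at 0.0602 and PHYKPL at 0.0893. FBLIM1, a filamin-binding junction protein, changed by 0.39, 0.66 and 1.499 with ENZ, EPZ and Combination, and MAPK8IP3, a scaffold of the JUN kinases, by 0.39, 0.68 and 1.49. PHYKPL, an enzyme of lysine breakdown, changed by 0.34, 0.62 and 1.38. The likeness is over 3 comparisons of 4 groups that share their DMSO libraries and is a description. FOS and EGR1 were not tested, so no nearest genes are named for them.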

How the data were processed

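Total RNA of 8 C4-2B samples was prepared with NEBNext Ultra RNA reagents for Illumina sequencing, per the labels' protocols. The authors deposited FPKM values, not counts. Per the submitters' processing notes STAR and hg38 were used. How fragments were assigned to genes, and whether strand was used, are details not given in the sources used here. Reads of overlapping genes cannot be told apart.

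Deposited FPKM were analysed as log2(FPKM + 1), which understates changes of low genes, wherever the mean over libraries reached 1 FPKM. Of 26475 rows 26443 had values, and 28 symbols had been turned into dates. limma 3.58.1 (R 4.3.3) was fitted on the whole table with 4 groups and an expression trend, with a two-sided moderated test (residual degrees of freedom 4, prior 5.47). Benjamini-Hochberg adjustment ran over all 11874 tested genes within each of 6 comparisons. EPZ against ENZ was added after the data were seen, so that neighbouring groups could be ordered. The threshold was an adjusted p of 0.05. The fit was tested on simulated data.

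Fragments were recovered because FPKM of low genes step by 1 fragment: 83.1% to 88.6% of genes under 0.3 FPKM stood in whole ratios to the first DMSO library within 0.04%. Relative depth was 1 to 1.58. Ratio intervals are exact (95%) and cover counting error only. Members' lengths were those implied by the table, from 1760 bases (FOSL1) to 4000 (FOSL2), and other genes' were from GENCODE release 29, which matched 94.9% of tested genes. Promoters are from RefSeq on GRCh38.p14. Protein sequences were not used here. Software was Python 3.11.15, pandas 2.3.3, numpy 2.4.6, scipy 1.17.1 and matplotlib 3.10.9.

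Alternatives were a pseudocount of 0.1, a minimum mean of 5 FPKM or none, scaling by median of ratios or by quantiles, only the compared groups, no trend, the replicate number as a block, and each library left out. Median-of-ratios factors were first computed over all rows without a 0. After those results had been seen they were recomputed over tested genes, and only the latter are given. Centring within 10 length bins was added after the data were seen. The members and lists were chosen with earlier results of these data known. All members are named, and from each list up to 4 tested genes with the smallest p in a comparison with DMSO and any past a 2-fold change. A gene that this rule takes is not reported here.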

Additional observations from a re-analysis of the deposited data

Results flagged for a closer look

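As deposited, the interaction term of limma passed for 3 members. On the log2 scale the effect of each agent on them thus differed with the presence of the other. JUN in Combination lay 0.42 above the sum of its single-agent changes on the log2(FPKM + 1) scale (95% interval 0.24 to 0.61, adjusted p = 0.00307), with both Combination libraries above all others. JUNB lay 0.64 above its sum (0.40 to 0.88, adjusted p = 0.0012). FOSL2 lay below its sum, with a value of -0.27 (-0.47 to -0.064, adjusted p = 0.0412). This call did not hold under the scalings tried, and most fits with a single library left out lost it too. The median interaction value over all tested genes was itself -0.12. If FPKM differences had added, FOSL2 would have reached 18.2 FPKM, and 18.5 FPKM was observed.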

How the results depend on the processing

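Over 17 alternatives for each comparison and 16 for the interaction, 636 values of single members kept their direction and side of the threshold, 27 lost the call, 21 gained it and 24 changed sign. Several alternatives cannot change the estimate and move only its p-value. These are the other expression filters, no trend, only the compared groups, the replicate block, and leaving out a library of a group not compared. Kept direction was therefore fixed in advance for many of the 636 values. JUN and FOSL2 passed in every comparison between groups under all 17 alternatives, and ATF3 under EPZ and Combination against DMSO and in Combination against ENZ.

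The sign changes came from scaling and from single libraries, and the cause was not tested. Under median-of-ratios scaling, quantile normalization and length centring in turn, Combination against DMSO became 0.027, 0.35 and 0.25 for JUNB and 0.047, 0.33 and 0.21 for IER2. Combination against ENZ became 0.18, 0.37 and 0.27 for JUND and 0.013, 0.16 and 0.091 for IER2, and Combination against EPZ became 0.051, 0.011 and 0.11 for ATF3. The FOSL2 interaction became 0.049 under quantile normalization. Leaving out single libraries gave -0.27 to 0.098 for ATF3 and -0.058 to 0.15 for IER2 in ENZ against DMSO, and -0.16 to 0.15 for JUND in Combination against ENZ. It gave -0.16 to 0.21 for ATF3 and -0.043 to 0.17 for IER2 in the interaction.

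Members lower with EPZ went from 2 to 1 with no filter, 1 under median-of-ratios scaling, 0 under quantile normalization and 0 after length centring, and from 0 to 3 with single libraries left out. In Combination against DMSO 5 members were higher under quantile normalization and 5 after length centring, and 0 were lower under quantile normalization, 2 with only the compared groups and 1 to 3 with single libraries left out. Against EPZ 4 were higher under median-of-ratios scaling, 4 under quantile normalization and 4 after length centring, and 0 were lower under quantile normalization and 0 after length centring. Members below the interaction sum went to 0 under all 3 scalings and were 0 to 1 with single libraries left out. Over all tested genes the share of calls that were higher moved too. In Combination against DMSO it rose from 41.3% as deposited to 48.2% under quantile normalization, and also rose after length centring. Against EPZ it rose to 48.9%, 48.8% and 48.5% under median-of-ratios scaling, quantile normalization and length centring in turn. With EPZ it rose from 41.9% to 49.4%, 47.7% and 50.6% in that order. Nothing particular to the members is read from these counts.

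With a mean of at least 5 FPKM, which tests fewer genes, 1980 genes were higher with ENZ, 1819 with EPZ, 2147 with Combination, 1676 in Combination against ENZ, 1857 against EPZ and 711 in the interaction. With no filter, which tests 21026 genes in place of 11874, 6633 were higher in Combination against DMSO, 4956 against ENZ and 5480 against EPZ. These counts thus differ in part because the number of tested genes differs. Genes above the interaction sum numbered 1958 under median-of-ratios scaling, 2454 under quantile normalization and 1883 after length centring, and 777 to 1447 with single libraries left out, the lowest without the second EPZ library.

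Replicate numbers were not used as pairs, since deviations of same-numbered libraries correlated at -0.015 to 0.11 over the groups. With the replicate number as a block 1 member was lower in Combination against ENZ, IER2 (adjusted p = 0.0364), and against ENZ 0 to 2 were lower with single libraries left out. The block changed no other member's call. With 1 library left in a group, that library is assumed to vary like the others. Depth limits FOS, EGR1, FOSB and FOSL1, which rest on 2 to 30 fragments a library.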
